A study of Mus musculus with 16 samples.

Results

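Knockout minus wild-type differences that ran the same way in macrophages of subcutaneous and of visceral fat were found for 6006 of 17097 measured genes. A gene was taken as shared by the depots where it passed the test of the average over both depots (limma, adjusted p under 0.05), had 1 sign in both, and had a smaller depot effect of at least 0.5 times the larger. Among these genes, 2476 were higher and 3530 lower in the knockout. The arrays carried RNA of adipose tissue macrophages from mice aged 19 to 21 weeks. In the knockout (KO), which the labels write KO-LysM and LysM-Sucnr1-/-, Cre recombinase under the lysozyme M promoter deletes the succinate receptor gene Sucnr1 in myeloid cells. The wild-type label (WT) stands for Sucnr1flox/flox mice, which carry the floxed alleles without Cre, so an effect of Cre and of the deletion cannot be told apart. There were 4 groups of 4 pooled samples, with 2 pools of each group on each of 2 days: KO subcutaneous fat (KO SAT), KO visceral fat (KO VAT), WT subcutaneous fat (WT SAT) and WT visceral fat (WT VAT). Cells were taken from collagenase-digested fat with CD11b beads, although another label names F4/80+ cells, and RNA of 300000 cells went through 24 amplification cycles. The label NCD is not spelled out, and nothing says that pools came from separate animals, so p-values measure the spread between these pools, which may be technical.

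Sucnr1 is a G protein-coupled receptor of the cell surface that binds succinate, an intermediate of the citric acid cycle that cells release when mitochondria are stressed. Macrophages of fat take up lipid and cell debris, and their inflammatory or alternative state is tied to how they use glucose and fatty acids. Deleting a receptor in the myeloid lineage of both depots would leave its shared effect in the genes that differ alike in both. The average over depots does not by itself ask for likeness, so the rule of sign and size was set beside it. All values below are log2 units, a level for a single array or group and a difference for KO minus WT, and a difference of 1 is a 2-fold change.

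Before any single gene, the arrays themselves differed by genotype. The spread of an array was taken as the interquartile range of the values of all its probe sets but controls. It was 2.36 to 2.63 on the KO arrays (mean 2.50 ± 0.11, SD, n = 8) and 2.00 to 2.53 on the WT arrays (mean 2.25 ± 0.19, SD, n = 8). WT VAT pools 3 and 4, both of day 2, stood apart from the other WT arrays at 2.50 and 2.53 and lay inside the KO range. In VAT on day 2 the genotypes therefore had like spread, at 2.51 and 2.62 in KO VAT and 2.50 and 2.53 in WT VAT. The first principal component held 58.8% of the variance between arrays and followed the spread (Pearson's r = 0.99 over the 16 arrays, which share genotype and day, given as a description). For this reason 3 readings are set beside the results: the difference with array spread as a term in the model, called spread-adjusted below, VAT on day 2 alone, and the fit without WT VAT pools 3 and 4. Group means took 64.8% of the variance of the spread within depot and day, so the spread and the genotype are partly one and the adjusted difference leaves out whatever goes with both. Genes of seminal vesicle were higher in KO than WT in SAT and genes of skeletal muscle lower, with values given beside the other marker lists. The depot labels of 1 genotype were therefore also exchanged, so that SAT of KO stood against VAT of WT and the reverse, which gave 5801 shared genes and 723 that passed on both sides, against 6006 and 1444 as labelled.

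**Figure D1:**
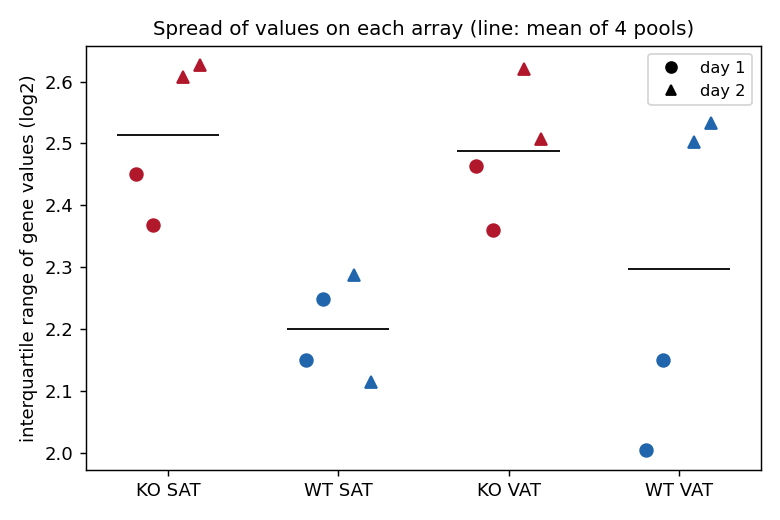
The interquartile range of the log2 values of all probe sets but controls on each of the 16 arrays, by group. Circles stand for day 1, triangles for day 2 and a line for the mean of 4 pools. The KO arrays lie between 2.36 and 2.63, and WT VAT pools 3 and 4 on day 2, at 2.50 and 2.53, are the WT arrays inside that range.

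Averaged over the depots, 8831 genes differed between KO and WT, 51.7% of those tested, with 3841 (22.5%) higher and 4990 (29.2%) lower in KO. The shared genes were 35.1% of all genes, 14.5% higher and 20.6% lower in KO. Of the genes that differed on average, 366 had opposite signs in the depots and 2459 had 1 sign but unlike size. A stricter count, genes that passed in SAT and in VAT on their own with 1 sign, gave 1444 (8.45%), of which 971 were higher and 473 lower in KO. SAT alone gave 6279 genes (36.7%) and VAT alone 2724 (15.9%), and the difference between the depots' knockout effects passed for 722 (4.22%), of which Acss2 was a shared gene. After spread adjustment the shared genes numbered 801, with 196 higher and 605 lower in KO, and 1347 genes (7.88%) passed on average, 1.94% higher and 5.94% lower in KO. Of the genes that passed on average 43.5% were higher in KO, but 60.6% when each array was centred on its median and 37.9% after quantile normalization of the deposited values. A change of at least 2-fold was shared by 112 genes higher and 38 lower in KO. Leaving out WT VAT pool 1 gave 3949 shared genes and 1310 for the difference between depots. SAT gave 3071 genes without WT SAT pool 4 and 3625 without KO SAT pool 1, and VAT gave between 1115 and 1541 without KO VAT pool 1, 2 or 3 or WT VAT pool 1 or 2. The stricter count lay between 512 (without KO VAT pool 1) and 2327 (without WT VAT pool 4), and between 706 and 960 without KO VAT pool 2, WT VAT pool 1 or 2 or KO SAT pool 1, 3 or 4, at 612 without KO VAT pool 3 and at 2277 without WT VAT pool 3.

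**Figure D2:**
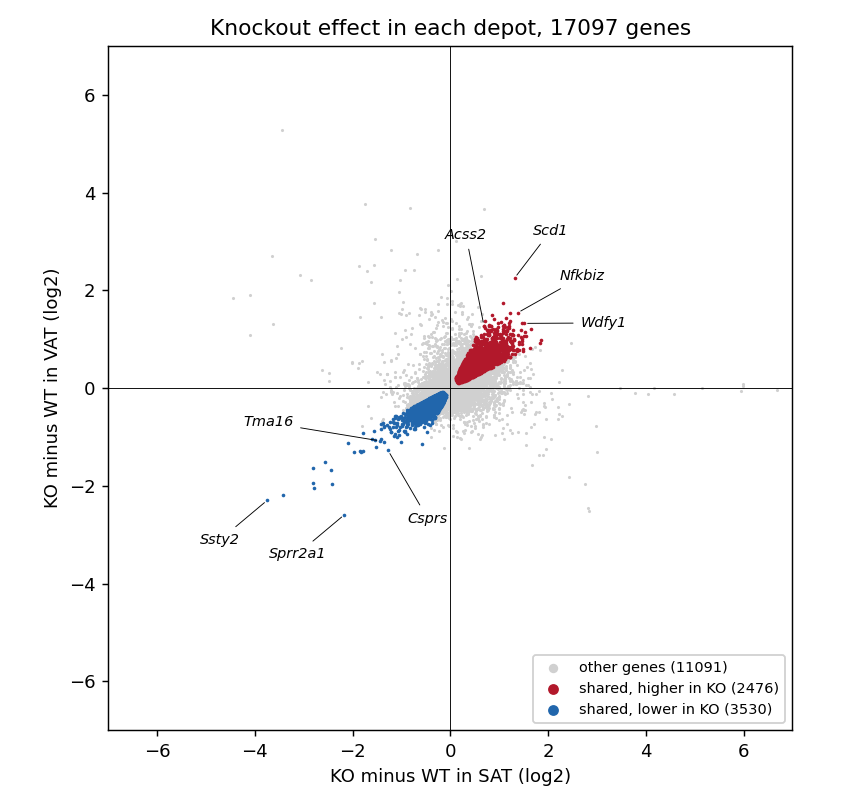
Knockout minus wild-type difference (log2) in SAT on the horizontal and in VAT on the vertical axis, 1 point per gene for 17097 genes, with the 2476 shared genes higher in KO in red, the 3530 lower in KO in blue and the others in grey. Shared genes fill the upper right and lower left of the plot by the rule that chose them, and Scd1, at 1.32 in SAT and 2.25 in VAT, has the largest average among the named rises.

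A further count needed no model. In 330 genes (1.93%) all 8 KO arrays lay on 1 side of all 8 WT arrays, 128 above (0.749%) and 202 below (1.18%). Of these, 307 were shared genes. Without WT VAT pool 3 the count was 811, without WT VAT pool 4 it was 808 and without KO SAT pool 2 it was 574. For 283 shared genes the spread-adjusted difference also passed and kept its sign, 212 higher and 71 lower in KO. Both conditions held for 79 genes, 65 higher and 14 lower in KO.

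The genotype label could not be checked on the targeted gene. The single Sucnr1 probe set lay between 3.41 and 3.65 on KO arrays (median 3.56) and between 3.35 and 3.61 on WT arrays (median 3.54), under the background level of 4.78, which is the 95th percentile of 41 olfactory receptor genes. Its difference was 0.0080 ± 0.047 (SE, adjusted p = 0.892), and whether the probes lie inside the deleted part is not given in the sources used here. Cre is driven here from the locus of Lyz2, which encodes lysozyme. Lyz2 had 10.02, 10.56, 10.75 and 10.59 in KO SAT against 10.86, 11.09, 11.36 and 11.18 in WT SAT. In visceral fat it had 9.72, 9.71, 10.36 and 10.19 in KO VAT against 10.52, 10.71, 10.39 and 10.68 in WT VAT. The genotypes did not overlap within either depot, and Lyz2 fell by 0.61 ± 0.10 (SE, n = 8 arrays per genotype, adjusted p = 0.000573), by 0.64 in SAT and 0.58 in VAT. Its spread-adjusted difference was -0.49 (adjusted p = 0.0649).

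The cells carried the marks of macrophages in every group. Of 19 core macrophage genes 18 were measured, all above background, and their mean level lay between 8.00 and 8.99 on KO arrays and 8.17 and 9.10 on WT arrays. On average 6 of the 18 fell and 0 rose, beside 29.2% of all genes that fell, and 1 of them, Lyz2, was shared. With all genes in 10 bins of mean level, bin 1 the lowest, the list's median level lay between bins 9 and 10, at percentile 90.0. In those bins 4.56% and 3.04% of genes fell, and 50.5% and 45.8% rose. The Fc receptor gene Fcgr3 fell by 0.47, the lysosomal membrane gene Laptm5 by 0.46 and the scavenger receptor gene Cd68 by 0.24, each larger in 1 depot than the other. The median of the list was -0.18, against -0.05 for all genes, and 6 fell after spread adjustment too. In bulk samples, fewer cells of a type and less RNA per cell cannot be told apart.

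Scd1, Acss2 and Pank3 serve the making of fatty acids and coenzyme A. Scd1 on chromosome 19, the desaturase that turns saturated into monounsaturated fatty acids, had 8.40, 8.27, 8.53 and 8.52 in KO SAT against 7.12, 6.96, 6.999 and 7.37 in WT SAT. In visceral fat Scd1 had 9.16, 9.29, 9.81 and 9.64 in KO VAT against 5.87, 7.24, 7.55 and 8.23 in WT VAT. Every KO array lay above every WT array, and Scd1 rose 3.44-fold (log2 1.78 ± 0.20, SE, adjusted p = 6.94e-05), the largest rise among the genes named by rule. It also passed after spread adjustment (1.18, adjusted p = 0.0105) and in VAT on day 2 alone (1.83, adjusted p = 0.00957), and its other probe set rose by 1.33.

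Acss2 on chromosome 2, which makes acetyl-CoA from acetate, had 6.03, 6.16, 6.41 and 6.89 in KO SAT against 5.41, 5.44, 5.89 and 6.01 in WT SAT. In visceral fat it had 7.10, 7.12, 7.68 and 7.54 in KO VAT against 5.60, 5.71, 6.62 and 6.40 in WT VAT. The genotypes did not overlap within a depot. Acss2 rose by 0.98 ± 0.08 (SE, adjusted p = 2.69e-06), by 0.69 in SAT and 1.28 in VAT, a gap of 0.59 between the depots that passed its own test (adjusted p = 0.0413). Its rise passed after spread adjustment (0.84, adjusted p = 0.00107) and in VAT on day 2 (1.10, adjusted p = 0.00125). The other Acss2 probe set, above background, rose by 0.36.

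Pank3 on chromosome 11, a pantothenate kinase that opens the synthesis of coenzyme A, had the smallest p of all shared genes. It had 6.12, 6.10, 6.36 and 6.52 in KO SAT against 5.28, 5.29, 5.31 and 5.27 in WT SAT, and 6.14, 6.12, 6.32 and 6.22 in KO VAT against 5.28, 5.50, 5.66 and 5.78 in WT VAT. No KO array reached down to a WT array, and Pank3 rose by 0.82 ± 0.06 (SE, adjusted p = 1.7e-06). The spread-adjusted rise was 0.64 (adjusted p = 0.000484), and its second probe set rose by 0.65.

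The fatty acid synthesis list, 15 measured genes, held 7 that rose and 1 that fell, 6 and 1 of them shared, beside 14.5% and 20.6% of all genes. In level bin 9, where the list lies, 34.6% of genes were shared and higher and 2.87% shared and lower. Elovl5, which lengthens polyunsaturated fatty acids, rose by 0.36 in SAT and 0.65 in VAT (average 0.51, adjusted p = 0.000656). Elovl6, which lengthens saturated ones, rose by 0.45 in SAT and 1.51 in VAT (average 0.98, adjusted p = 0.000225), too unlike in size to be shared, and its other probe sets differed by 0.14 and 0.15. The list's median was 0.30, and after spread adjustment it was -0.03 with 2 members higher and 2 lower in KO. Of 17 genes of mitochondrial fatty acid oxidation, 6 rose and 2 fell as shared genes, beside 29.7% and 6.96% of genes in level bin 8. The oxidation list lies in that bin, and its median was 0.26. After spread adjustment 0 rose and 2 fell by limma with a median of -0.08, and under quantile normalization 6 rose and 4 fell with a median of 0.04. Acadm, the medium-chain acyl-CoA dehydrogenase, rose by 0.76, and Hadh, a later enzyme of the cycle, by 1.10 (adjusted p = 0.000244 and 0.000364), although the other Hadh probe set differed by 0.18. Cpt1b, the muscle-type carnitine palmitoyltransferase that admits fatty acids to mitochondria, lay at 5.48 to 5.79 on KO arrays (median 5.71) and 5.92 to 6.47 on WT arrays (median 6.06). It fell by 0.42 ± 0.07 (SE, adjusted p = 0.000514) with no overlap, and by 0.46 after spread adjustment (adjusted p = 0.015).

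Promoters of shared genes are shown to compare a pair that rose with a pair that fell. They are the 250 bases before the annotated start, 5′ to 3′ along the gene, from RefSeq on build GRCm38.p6, with capitals for the CCAAT box and the antioxidant response element on either strand.
Pank3, chr11:35769245-35769494, plus strand: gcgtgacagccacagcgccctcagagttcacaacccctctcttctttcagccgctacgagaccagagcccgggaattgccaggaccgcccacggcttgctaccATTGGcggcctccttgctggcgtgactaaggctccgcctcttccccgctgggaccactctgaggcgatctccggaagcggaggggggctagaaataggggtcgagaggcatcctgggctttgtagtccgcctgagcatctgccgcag
Acss2, chr2:155517793-155518042, plus strand: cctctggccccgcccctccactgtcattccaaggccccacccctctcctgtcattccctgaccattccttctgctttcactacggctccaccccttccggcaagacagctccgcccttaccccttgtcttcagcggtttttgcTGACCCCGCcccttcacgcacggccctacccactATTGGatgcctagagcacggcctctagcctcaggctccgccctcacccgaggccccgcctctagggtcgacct
Sprr2a1, chr3:92215585-92215834, plus strand: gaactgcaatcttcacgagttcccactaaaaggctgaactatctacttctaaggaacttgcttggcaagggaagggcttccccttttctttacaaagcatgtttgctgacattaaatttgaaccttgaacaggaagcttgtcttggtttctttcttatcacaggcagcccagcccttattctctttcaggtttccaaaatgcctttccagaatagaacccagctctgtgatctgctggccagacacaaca
Cpa1, chr6:30638968-30639217, plus strand: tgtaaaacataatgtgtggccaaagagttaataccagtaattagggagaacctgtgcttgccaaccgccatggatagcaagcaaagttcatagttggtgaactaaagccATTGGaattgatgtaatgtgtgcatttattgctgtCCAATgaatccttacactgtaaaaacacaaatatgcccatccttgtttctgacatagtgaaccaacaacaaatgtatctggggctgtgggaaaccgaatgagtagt
Pank3 and Acss2, which rose, hold 63.6% and 64% G and C in these windows, and Sprr2a1 and Cpa1, which fell, 44% and 40%. Promoters were found for 13514 of the 17097 genes. Their median was 61.6% G and C with 16 CpG pairs over 2050 shared genes that rose, 54% with 4 pairs over 2694 that fell, and 57.6% with 8 pairs over all. For shared genes without overlap that also passed after spread adjustment, it was 66.4% with 19 pairs over 53 that rose. Over 7 of them that fell it was 65.2% with 1.5 pairs. The sets also differ in level, with a median of 7.31 for shared genes that rose, 4.69 for those that fell and 5.42 for all.

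The 10 short motifs searched on both strands in the same windows, overlaps allowed, are each given with the share of promoters that hold them. The TATA box (TATAAA) occurred in 5.37% of promoters that rose, 12.5% of those that fell and 9.26% of all. The E-box (CACGTG) occurred in 10.3%, 6.38% and 7.6%, and the cyclic AMP response element (TGACGTCA) in 3.41%, 1.74% and 2.3% of the same sets. AP-1 (TGANTCA) occurred in 3.51% of promoters that rose, 6.98% of those that fell and 5.62% of all, but in genes without overlap of the genotypes it occurred in 8.26% of 109 promoters that rose and 6.58% of 152 that fell. The CCAAT box (CCAAT) occurred in 34.8%, 34.2% and 35.9%, the antioxidant response element (TGACNNNGC) in 12.2%, 11.3% and 11.7%, C/EBP (TTGCNNAA) in 6.73%, 8.87% and 8.07%, and the ETS motif of PU.1 (GAGGAAGT) in 2.44%, 1.67% and 2.35%. The interferon-stimulated response element occurred in 1.95%, 2.93% and 2.59%, and NF-kB in 0.293%, 0.26% and 0.355%. A match describes letters in a window and shows no binding, and base composition moves with the sets.

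Wdfy1 on chromosome 1, an endosomal adaptor of Toll-like receptor signalling, was higher on every KO array than on any WT array. It had 8.13, 7.88, 8.20 and 8.21 in KO SAT against 6.77, 6.75, 6.69 and 6.19 in WT SAT. In visceral fat Wdfy1 had 8.37, 8.08, 8.38 and 8.35 in KO VAT against 6.45, 6.76, 7.32 and 7.36 in WT VAT. The lowest KO array stood clear of the highest WT array, and the rise was 1.42 ± 0.12 (SE, 2.67-fold, adjusted p = 1.12e-05). It held after spread adjustment (0.85, adjusted p = 3.67e-05) and in VAT on day 2 (1.03, adjusted p = 0.00443). Of its 3 other probe sets, 2 rose by 1.64 and 1.61, and the third differed by -0.07.

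Cemip2 on chromosome 19, a cell-surface protein of hyaluronan breakdown, had 6.32, 6.25, 6.41 and 6.56 in KO SAT against 5.66, 5.55, 5.97 and 5.85 in WT SAT, and 6.44, 6.41, 6.73 and 6.45 in KO VAT against 5.48, 5.56, 5.56 and 5.78 in WT VAT. Again no array of a genotype overlapped the other, and the rise was 0.77 ± 0.06 (SE, adjusted p = 1.89e-06), 0.76 after spread adjustment and 0.92 in VAT on day 2 (adjusted p = 0.000484 and 0.00125). Its other probe sets gave 0.33 and 0.04, the second of them under background. Zbtb18 on chromosome 1, a transcriptional repressor with zinc fingers, lay at 7.88 to 8.73 on KO arrays (median 8.22) and 6.78 to 7.82 on WT arrays (median 7.31). It rose by 0.99 ± 0.08 (SE, adjusted p = 2.69e-06), 0.85 after spread adjustment.

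Abi1 on chromosome 2, an adaptor of the complex that drives actin branching, lay at 5.39 to 6.89 on KO arrays (median 5.75) and 4.09 to 5.10 on WT arrays (median 4.56). Its rise of 1.30 ± 0.14 (SE, adjusted p = 6.98e-05) was 0.88 after spread adjustment and 1.51 in VAT on day 2. Nfkbiz on chromosome 16, an inhibitor-like partner of NF-kB that Toll-like receptors induce, lay at 8.02 to 8.93 on KO arrays (median 8.52) and 6.02 to 8.00 on WT arrays (median 7.02). It rose by 1.46 ± 0.19 (SE, adjusted p = 0.000143), less on its other probe sets (0.62 and 0.44). Nfkbiz also rose after spread adjustment, by 0.69 (adjusted p = 0.0235), and in VAT on day 2 its difference was 1.01 (adjusted p = 0.0945).

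**Figure D3:**
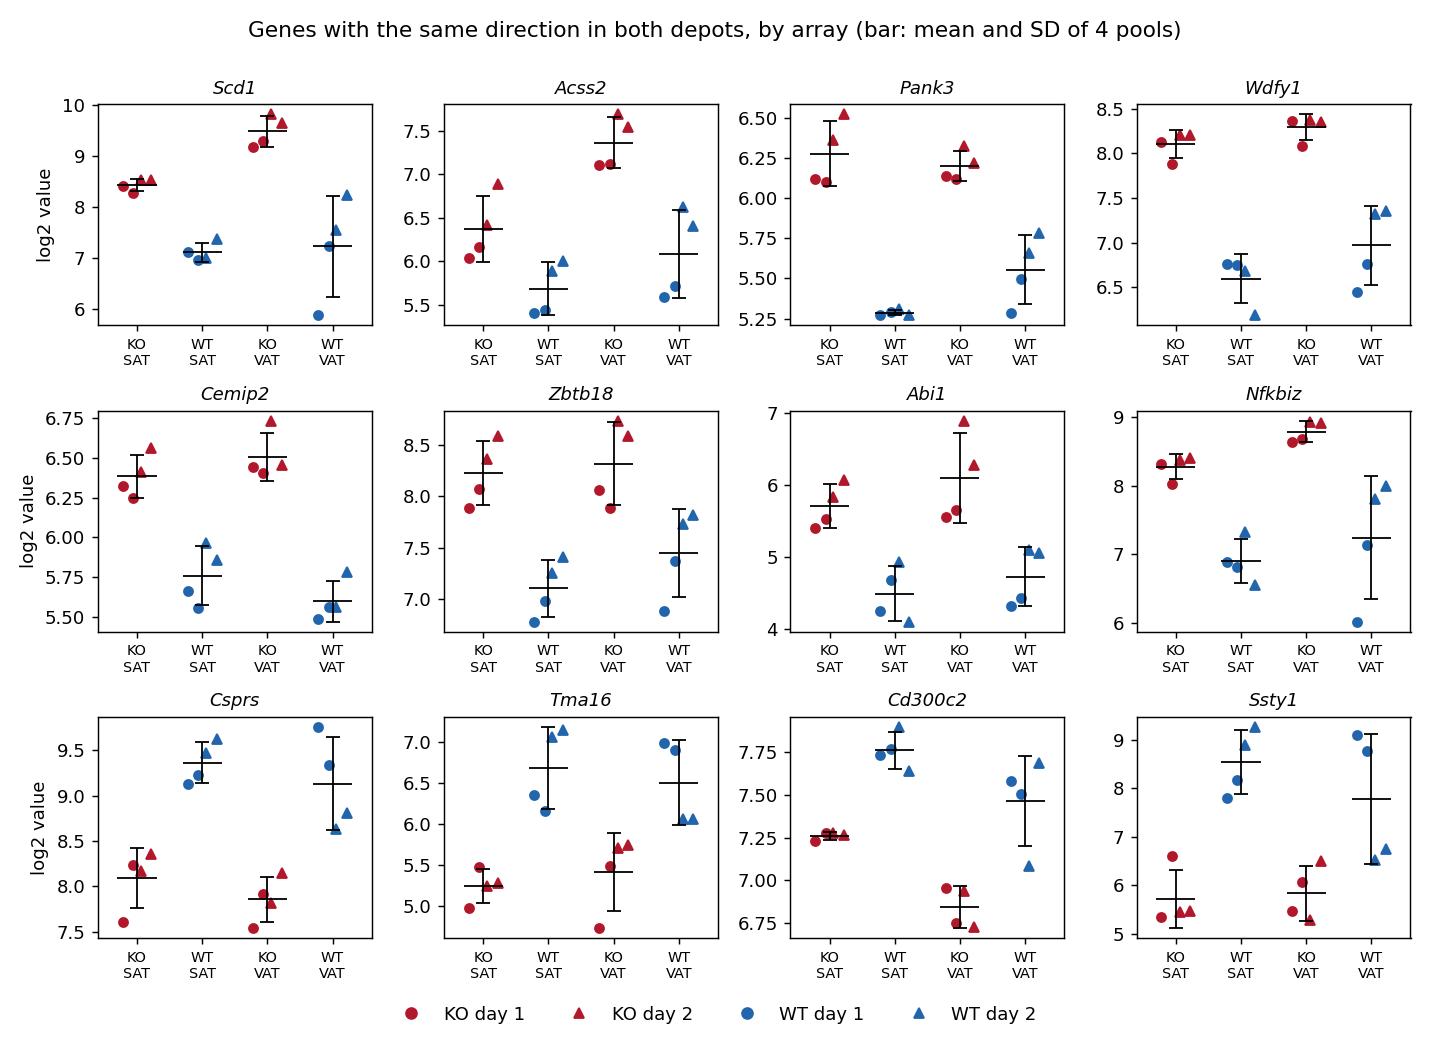
Log2 values of 12 shared genes on every array, KO left of WT in each depot, with circles for day 1, triangles for day 2 and the mean and SD of 4 pools in black. KO points lie above WT points within each depot in the first 8 panels (Scd1 8.27 to 9.81 in KO and 5.87 to 8.23 in WT) and below them within each depot for Csprs, Tma16 and Cd300c2, while WT VAT on day 2, at 6.53 and 6.74, lies nearer to the KO values than other WT arrays for Ssty1.

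The other large rises spanned several functions. Ypel2, of a small family linked to cell division, rose by 1.41 and by 1.67 after spread adjustment (adjusted p = 0.000406 and 0.00804), and its other probe sets rose by 0.90 and 0.94. Lgi2, a secreted leucine-rich protein, lay at 6.24 to 7.68 on KO arrays (median 6.98) and 4.75 to 6.26 on WT arrays (median 5.62), and rose by 1.38 (adjusted p = 1.99e-05), 0.86 after spread adjustment. The other Lgi2 probe set rose by 0.44. Ube2w and Ube2e1, ubiquitin-conjugating enzymes, rose by 1.41 and 1.32 (adjusted p = 6.94e-05 and 0.00058). Ube2w passed after spread adjustment (0.70) and Ube2e1 did not (0.26). Other Ube2w probe sets differed by 0.76 and -0.006, the second of them under background. Tshz1, a zinc-finger transcription factor, rose by 1.43, and passed after spread adjustment (0.49, adjusted p = 0.0306), but its other probe set, above background, rose by 0.31.

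Ube2e1 and 6 more of the 15 largest rises did not pass after spread adjustment. Vma21, needed to assemble the proton pump of lysosomes, rose by 1.43 and had 0.33 with that term, and its other probe sets rose by 0.50, 0.43 and 0.32. Btbd7 rose by 1.34 (0.53 with the term), Mex3c, an RNA-binding ubiquitin ligase, by 1.31 (0.22) and Adam9, a membrane protease, by 1.28 (0.24). The other Btbd7 probe sets, all above background, differed by 0.51, 0.17 and 0.07. Nnt, the mitochondrial transhydrogenase that makes NADPH, rose by 1.28 (0.48), but its other probe set differed by 0.06. Usp14, a deubiquitinase of the proteasome, rose by 1.38 on average, yet turned to -0.13 with the term and -0.05 in VAT on day 2.

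Taking the 15 largest rises together with the 4 further genes of smallest p, 12 of 19 passed after spread adjustment and 9 of 19 in VAT on day 2, where 2.61% of all genes passed. Their differences ran from 0.77 to 1.78, and from 0.75 to 2.05 without WT VAT pools 3 and 4, and 17 of the 19 passed in both depots. Members chosen by size in this contrast are described by these counts, and the counts support nothing further.

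Among the falls, Csprs and Tma16 had no overlap between genotypes. Csprs on chromosome 1, a gene of the repeated Sp100-rs locus, had 7.61, 8.24, 8.17 and 8.36 in KO SAT against 9.13, 9.23, 9.48 and 9.63 in WT SAT. In visceral fat it had 7.54, 7.92, 7.82 and 8.15 in KO VAT against 9.75, 9.34, 8.64 and 8.80 in WT VAT. Csprs fell by 1.27 ± 0.16 (SE, adjusted p = 0.000136), by 1.27 in SAT and 1.28 in VAT, and both of its other probe sets fell by 1.07. Csprs also fell after spread adjustment, by 0.62 (adjusted p = 0.023), and since its locus is repeated, probes may read near-identical copies.

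Tma16 on chromosome 8, a ribosome-associated protein, lay at 4.74 to 5.75 on KO arrays (median 5.38) and 6.06 to 7.15 on WT arrays (median 6.63). It fell by 1.26 ± 0.20 (SE, adjusted p = 0.000469), but its other probe set rose by 0.30, so the probe sets disagree. Cd300c2 on chromosome 11, an immunoglobulin-like receptor of myeloid cells, had 7.23, 7.28, 7.27 and 7.26 in KO SAT against 7.73, 7.77, 7.90 and 7.64 in WT SAT, and 6.96, 6.75, 6.94 and 6.73 in KO VAT against 7.58, 7.51, 7.08 and 7.68 in WT VAT. The genotypes were apart within each depot, and Cd300c2 fell by 0.56 ± 0.08 (SE, adjusted p = 0.000265) and by 0.57 after spread adjustment (adjusted p = 0.0126). Gsdmcl1, of the gasdermin C family, and Cpa1, a pancreatic carboxypeptidase, fell by 0.81 and 0.56 (adjusted p = 0.000129 and 0.000234), Gsdmcl1 to under background on every KO array.

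The largest falls were of genes of germ cells, skin and chemosensory organs, many of them in multicopy families whose copies the probes may not separate. Ssty2 on chromosome Y, a spermatid gene in many copies, lay at 4.20 to 7.55 on KO arrays (median 5.51) and 6.89 to 9.84 on WT arrays (median 9.26). Ssty2 fell by 3.02 ± 0.50 (SE, adjusted p = 0.000616), and its genotypes overlapped. Ssty1, of the same Y-linked family, had 5.35, 6.61, 5.45 and 5.46 in KO SAT against 7.81, 8.18, 8.89 and 9.25 in WT SAT. In visceral fat Ssty1 had 5.47, 6.08, 5.29 and 6.51 in KO VAT against 9.09, 8.76, 6.53 and 6.74 in WT VAT, so WT VAT pools 3 and 4 lay above the 4 KO VAT arrays but nearer to them than the other WT arrays did. Ssty1 fell by 2.38 (adjusted p = 0.000427) and had -0.72 after spread adjustment (adjusted p = 0.133).

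Orly, another multicopy gene of chromosome Y, fell by 2.05, and Astx6, a multicopy X-linked testis gene, fell by 2.81. Of 12 measured genes of chromosome Y, 5 fell and 2 rose as shared genes. The 2 were the translation factor Eif2s3y and the histone demethylase Kdm5d, higher in KO by 0.54 and 0.57 (adjusted p = 0.0102 and 0.00351), and were named after their values were seen. The vomeronasal receptor genes Vmn1r148 and Vmn2r42 fell by 2.41 and 1.56, the spermatid pseudogene Speer8-ps1 by 1.61 and Pramel34, of the germ cell PRAME-like family, by 1.37, with every KO array of Pramel34 under background. Sprr2a1, of the cornified envelope of skin, fell by 2.38 (adjusted p = 0.000129) and by 1.45 after spread adjustment (adjusted p = 0.0269). The homeobox gene Hoxb7 fell by 1.64, Ugt3a1, a glycosyltransferase, by 1.54, Krtap6-2, a hair keratin partner, by 1.24 and Tbx19, a pituitary T-box factor, by 1.22.

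After spread adjustment, Sprr2a1 and Csprs of the 15 largest falls passed, and 0 of the 15 passed in VAT on day 2 by limma, where every difference but that of Speer8-ps1 was still negative. Without WT VAT pools 3 and 4 all 15 passed, with differences from -3.65 to -1.56. Several families of low level held many falls. With all genes in 10 bins of mean level, bin 1 the lowest, 24% of the genes in bin 1 fell and between 44.2% and 51.2% of those in bins 2 to 4. The vomeronasal type 1 receptors had a median level of 3.57, in bin 1, and the other families below lay in bins 2 to 4. Of 41 olfactory receptor genes 27 fell and 1 rose, with a median difference of -0.26, and of 29 vomeronasal type 1 receptors 17 fell (median -0.15). Of 8 Speer genes 6 fell (median -0.83), of 38 hair keratin partners (Krtap) 19 fell and of 18 kallikreins 12 fell. The medians of these 5 families stayed negative when arrays were centred on their medians, with 6 vomeronasal type 1 and 13 hair keratin partner genes lower in KO. After spread adjustment 0 genes of these 5 families fell by limma, and their medians lay between -0.02 and 0.01, the keratin partners being the family whose sign turned.

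Direction went with level. The median difference ran from -0.08 to -0.19 in level bins 1 to 4, which hold equal numbers of genes, and was 0.23, 0.29 and 0.23 in bins 8, 9 and 10. In bin 9, 34.6% of genes were shared and higher in KO and 2.87% shared and lower, and in bin 3, 2.98% and 38.3%. Spread-adjusted medians ran from 0.00 in bin 1 to -0.13 in bin 10. In VAT on day 2, where spread was alike, the medians lay between -0.06 and 0.00. Of all shared genes 4170 were above background in both depots, 2346 higher and 1824 lower in KO.

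**Figure D4:**
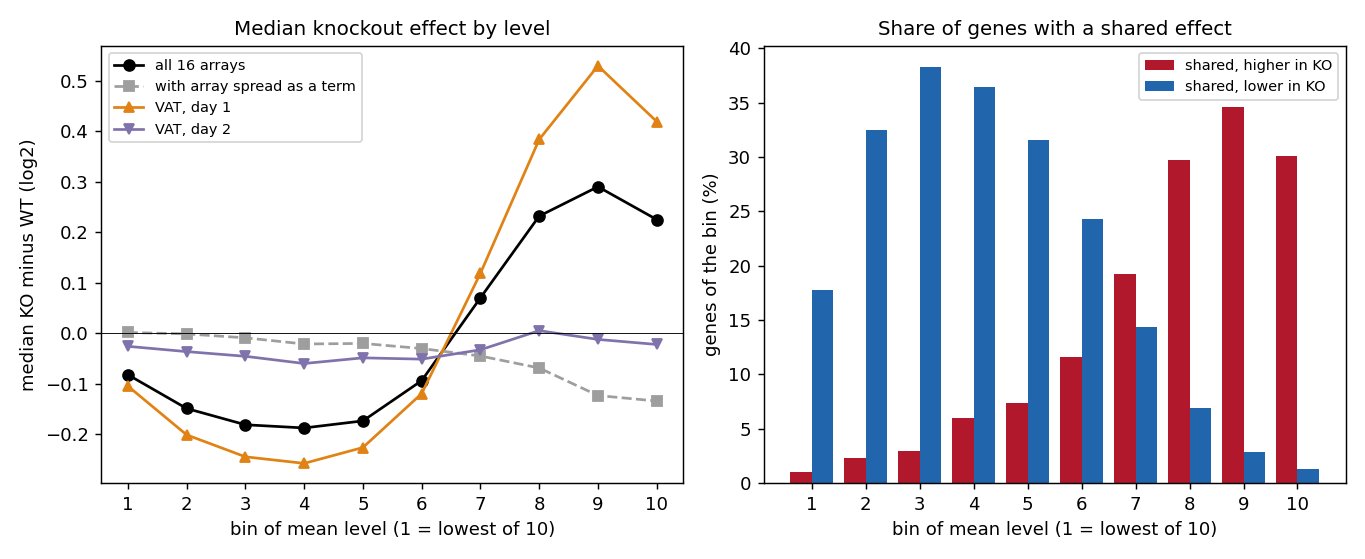
Left, median KO minus WT difference (log2) of genes in 10 bins of mean level, for all 16 arrays (black), with array spread as a term (grey), VAT on day 1 (orange) and VAT on day 2 (purple). Right, the percentage of each bin that was shared and higher (red) or lower (blue) in KO: 34.6% were higher in bin 9 and 38.3% lower in bin 3, and the medians for VAT on day 2 stay between -0.06 and 0.00.

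The risen and fallen shared genes also differed in build. The median genomic span was 27.7 kb for those that rose, 15.02 kb for those that fell and 20.2 kb for all genes, and unnamed gene models made up 2.91%, 19.9% and 10.8% of the same sets. Shared genes lay on every chromosome, from 32.2% of measured genes on chromosomes 19 and X to 39% on chromosome 18, beside 58.3% of 12 genes on chromosome Y. Among the 25 measured neighbours on each side of Sucnr1 on chromosome 3, 11 rose and 10 fell as shared genes (42%), and P2ry13 had no overlap between genotypes. Around Lyz2 on chromosome 10 the counts were 6 and 8 (28%), with 0 genes free of overlap. Beside these counts, 35.1% of all genes were shared and 1.93% had no overlap. On chromosome 3 these shares were 34.8% and 2.56%. Of other probe sets for the same genes, 77.4% kept the sign for genes that rose and 86.6% for genes that fell, against 72.9% over all genes. Among other probe sets above background the shares were 84.6% for genes that rose, 75.1% for genes that fell and 74.4% over all genes.

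Genes free of overlap that also passed after spread adjustment were read as a set of 79, from which the following were named after their values were seen. Mbtps2, the membrane protease that releases the sterol regulators from their precursor, lay at 5.68 to 6.35 on KO arrays (median 6.03) and 4.26 to 5.49 on WT arrays (median 4.70), and rose by 1.24 (0.82 after spread adjustment). Fnip1, a regulator of AMP-activated kinase and mTOR signalling, lay at 6.87 to 7.75 on KO arrays (median 7.23) and 5.32 to 6.58 on WT arrays (median 6.30), and rose by 1.12. Igf1r, the receptor of insulin-like growth factor, rose by 0.56 with and without spread adjustment (adjusted p = 0.000129 without), and its other probe sets differed by 0.60, 0.08 and -0.03. Tet2, which oxidises methylated cytosine, rose by 0.89, Usp32, a deubiquitinase, by 1.04 and Gfpt1, the first enzyme of the hexosamine pathway, by 0.55. The other probe set of Tet2 rose by 0.44 and that of Usp32, under background, by 0.23. For Gfpt1 the other probe sets differed by 0.29 (adjusted p over all probe sets = 0.098, limma), -0.12 and -0.008, the last 2 under background.

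Among the 14 that fell in that set, Tubb3, a tubulin of neurons, lay at 5.00 to 5.40 on KO arrays (median 5.13) and 5.44 to 6.39 on WT arrays (median 5.96), and fell by 0.79. Rpl17, a protein of the large ribosomal subunit, fell by 0.24 and by 0.41 after spread adjustment, but another of its probe sets, also above background, rose by 0.83 (adjusted p over all probe sets = 0.000643), so its probe sets disagree. Acy1, an aminoacylase, fell by 0.40 and Hif3a, a relative of the hypoxia factors, by 0.35. In VAT on day 2 the difference kept its sign in each gene named here, from 0.50 for Tet2 to 1.01 for Fnip1 among rises and from -0.55 for Tubb3 to -0.20 for Hif3a among falls.

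For mitochondrial genes, shared rises outnumbered shared falls. Of 23 measured citric acid cycle genes 12 rose and 0 fell as shared genes, of 27 of mitochondrial translation 13 rose and 1 fell, and of 32 of the respiratory chain and ATP synthase 13 rose and 0 fell. Beside these counts, 14.5% of all genes were shared and higher, and the median levels of these lists lay at percentiles 89.0, 78.9 and 95.7, where rises were common. Mdh1, the cytosolic malate dehydrogenase, rose by 0.65, Suclg2, a subunit of the enzyme that forms succinate from succinyl-CoA, by 0.58, Sdhd, an anchor of succinate dehydrogenase, by 0.44 and Pdha1, of pyruvate dehydrogenase, by 0.73. Mrpl44, of the mitochondrial ribosome, lay at 6.88 to 8.05 on KO arrays (median 7.55) and 5.75 to 7.45 on WT arrays (median 6.27), and rose by 1.05 (adjusted p = 0.000116). Uqcrfs1 of complex III rose by 0.58 and Ndufb3 of complex I by 0.41.

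After spread adjustment the medians of these lists were -0.04, -0.11 and -0.09, with 0, 1 and 0 genes higher and 3, 3 and 9 lower in KO. Mrpl44 was the member that stayed higher (0.57, adjusted p = 0.0178), but its other probe set, above background, differed by 0.099 in the fit without spread (adjusted p over all probe sets = 0.248). In VAT on day 2 the medians were 0.16, 0.04 and 0.04, beside -0.04 for all genes. Under quantile normalization the median of the respiratory chain turned to -0.00074, and those of the other lists stayed positive.

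Lists of RNA and protein handling are given beside the same 14.5% of all genes, and beside 34.6% and 30.1% of the genes of level bins 9 and 10, where these lists lie. Of 24 splicing factor genes 16 rose and 0 fell as shared genes, with a median of 0.39. Hnrnph1, which binds G-rich RNA, lay at 9.86 to 10.18 on KO arrays (median 9.97) and 8.89 to 9.70 on WT arrays (median 9.46) without overlap, and rose by 0.58, and Srsf1, a serine and arginine-rich factor, rose by 0.95. Of 13 heat shock chaperones 8 rose as shared genes, Dnajb1 and Dnaja1 by 0.41 and 0.44, of 23 ribosome biogenesis genes 9, Rrs1 and Ncl by 0.54 and 0.71, and of 30 proteasome genes 8, Psma3 and Psmd14 by 0.30 and 0.26. Of 25 cytosolic ribosomal proteins 0 were shared. After spread adjustment 0 genes of the splicing, chaperone, biogenesis and proteasome lists were higher by limma, and 1, 1, 6 and 11 were lower. Under quantile normalization the proteasome median turned to -0.01.

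Of 23 immediate early genes, which also respond to cell isolation, 9 rose and 0 fell as shared genes, beside 14.5% of all genes that rose and 34.6% of those in level bin 9, where the list lies. Its median was 0.35, and after spread adjustment it was 0.05 with 1 gene higher and 2 lower in KO. Klf4, a factor of alternative activation and stress, lay at 7.73 to 8.84 on KO arrays (median 8.22) and 7.11 to 8.27 on WT arrays (median 7.48), and rose by 0.67 (adjusted p = 0.000219), with 0.21 on its other probe set. Map3k8, a kinase downstream of Toll-like receptors, lay at 5.64 to 6.96 on KO arrays (median 6.33) and 4.65 to 5.84 on WT arrays (median 4.93). It rose by 1.20 ± 0.12 (SE, adjusted p = 3.15e-05) and by 0.70 after spread adjustment (adjusted p = 0.00156). Nfkbiz, Map3k8 and Tnfaip3, which dampens NF-kB, were the 3 shared genes of the 16 in the NF-kB list. Beside that count, 14.5% of all genes were shared and higher, and 29.7% of those in level bin 8, where the NF-kB list lies. The list medians of the depots lay apart, at 0.51 in SAT and -0.01 in VAT.

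Of 21 G protein-coupled receptors for metabolites and nucleotides, the group of Sucnr1, 2 rose and 7 fell as shared genes, and 13 of the 21 were above background. Of all genes 20.6% fell as shared genes, and 36.4% of those in level bin 4, where the list lies. P2ry13, an ADP receptor gene beside Sucnr1, lay at 4.05 to 4.44 on KO arrays (median 4.24) and 4.48 to 5.48 on WT arrays (median 5.03), and its difference was -0.72 (adjusted p = 0.00115). As every KO array lay under the background level of 4.78, that size is no exact measure. After spread adjustment P2ry13 had -0.23 (adjusted p = 0.411), and in VAT on day 2 -0.26. P2ry6, a UDP receptor, fell by 0.51 and by 0.72 after spread adjustment (adjusted p = 0.00249 and 0.0123), and P2ry1, an ADP receptor, by 0.41. Of 12 MHC class II genes 6 fell and 0 rose on average, 1 of them, H2-Eb2, as a shared gene (-0.39, with every KO array under background), and 1 fell after spread adjustment. On average 29.2% of all genes fell, and 22% of those in level bin 7, where the MHC class II list lies. Of 17 lipid-associated macrophage genes 1 rose, 2 fell and 14 did not pass on average, with medians of -0.02 in SAT and -0.16 in VAT. In level bin 10, where this list lies, 45.8% of genes rose and 3.04% fell. Its member Trem2, a receptor for lipids, lay at 5.39 to 6.42 on KO arrays (median 5.89) and 5.79 to 7.01 on WT arrays (median 6.56). Trem2 fell by 0.54 (adjusted p = 0.012) and by 0.86 after spread adjustment (adjusted p = 0.0291).

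**Figure D5:**
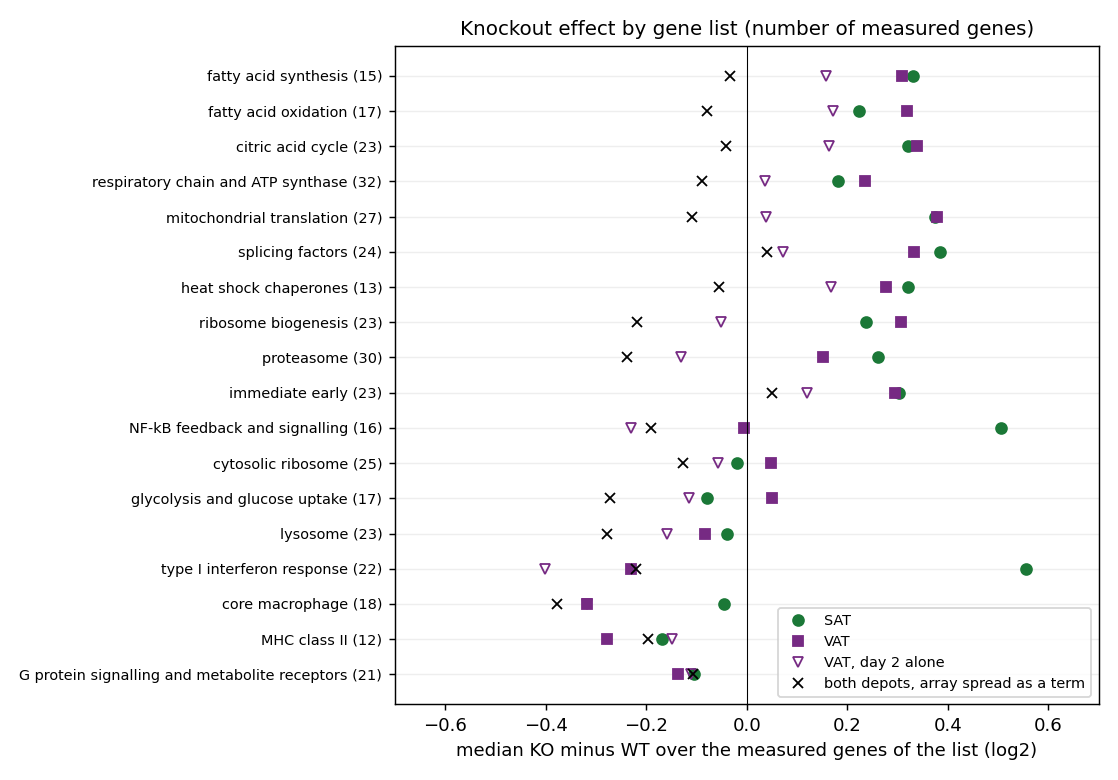
Median KO minus WT difference (log2) over the measured genes of 18 lists, in SAT (green circles), VAT (purple squares), VAT on day 2 alone (open triangles) and over both depots with array spread as a term (crosses). Mitochondrial translation had 0.37 in SAT and 0.38 in VAT but 0.04 in VAT on day 2, and type I interferon response had 0.56 in SAT and -0.23 in VAT.

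Some lists held genes that passed on average while few or 0 of them were shared. On average 22.5% of all genes rose and 29.2% fell. Of 22 type I interferon genes 8 rose and 0 were shared, the median being 0.56 in SAT and -0.23 in VAT, and the average median turned to -0.07 under quantile normalization. In level bin 10, where the interferon list lies, 45.8% of genes rose. Of other cells, 8 of 8 seminal vesicle genes rose and 0 were shared, with a median of 5.06 in SAT and -0.05 in VAT, and 16 of 16 skeletal muscle genes fell, 2 of them shared (-1.84 in SAT and 0.23 in VAT). Their summed linear levels ran from 334.0 to 10902 on KO arrays and 371.5 to 1022 on WT arrays for the seminal vesicle list, and from 441.7 to 1232 on KO arrays and 476.8 to 4798 on WT arrays for the muscle list. Stromal genes had 13 rises and 3 shared of 23 (sums 14716 to 18147 on KO and 9019 to 22035 on WT arrays), and T cell genes 11 falls and 2 shared of 13 (sums 453.8 to 693.8 on KO and 507.7 to 1091 on WT arrays). In level bin 9, where the stromal list lies, 50.5% of genes rose, and in bin 6 (T cell) 35.6% fell. For the seminal vesicle and muscle lists, which lie in bin 5, the shares of that bin were 13.6% risen and 45.6% fallen. Some other marker lists had medians below 0 in both depots. Of 11 dendritic cell genes 6 fell and 0 rose, 4 of them shared, with medians of -0.28 in SAT and -0.24 in VAT and below 0 in each depot on each day (sums 1879 to 3134 on KO and 2268 to 3462 on WT arrays). Of 11 mesothelial genes 4 fell as shared genes (medians -0.10 in SAT and -0.14 in VAT, 4 of the 11 above background). Of 6 eosinophil genes 2 did (-0.18 and -0.14, 1 above background), with a median of 0.05 in VAT on day 2. Of 12 neutrophil genes 3 did, with medians unlike in size (-0.35 and -0.09). Beside these counts and that of dendritic cell genes, 20.6% of all genes fell as shared genes. In level bin 5, where the dendritic list lies, the share was 31.6%. It was 32.5% in bin 2 (mesothelial and eosinophil) and 36.4% in bin 4 (neutrophil). The part of other cells in the shared genes was not tested.

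The 4 combinations of depot and day did not share the effect equally. Genes that passed numbered 1073 in SAT on day 1, 6761 in SAT on day 2, 6362 in VAT on day 1 and 446 in VAT on day 2, in a fit with 8 groups. Of the 6279 genes that passed in SAT, 91% had the same sign in VAT on day 1 and 69.1% in VAT on day 2, beside 82.9% and 61.2% of all genes. Across genes, which are not independent, the differences correlated at Pearson's r = 0.67 between SAT on day 2 and VAT on day 1, and at 0.07 between SAT on day 2 and VAT on day 2. These combinations use separate arrays, though arrays of 1 day and 1 depot share their preparation.

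The size rule drew a line through a continuous range. Just inside it, Eogt had 0.38 in SAT and 0.19 in VAT, and Trim12a 0.57 and 0.29. Just outside it, St13 had 0.44 in SAT and 0.22 in VAT, and Mov10l1 -0.40 and -0.20. Mov10l1 did not pass on average without WT VAT pool 2 or without KO VAT pool 1 (-0.25 and -0.27).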

How the data were processed

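RNA of pooled adipose tissue macrophages was hybridised to 16 Affymetrix mouse arrays. The deposited log2 levels of probe sets came from the authors' RMA run (affy), per the submitters' processing notes, and the versions are not given in the sources used here. RMA equalises the distribution of probe signals between arrays, so differences are relative. Of 45141 probe sets, 104 control probe sets were left out and 28898 carry 1 gene symbol, which gave 17097 genes by the probe set of highest mean over all arrays. The deposited table held 0 columns of other samples.

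The model was limma's (version 3.58.1, R 4.3.3) on all arrays, by genotype and depot with day as a term, and adjusted over all genes by Benjamini-Hochberg. The fit was tested on simulated data. Intervals of depth do not apply to arrays, whose number limits precision.

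The members, the 50 gene lists and the 10 motifs were chosen with earlier results of these data known. Genes were named by rule: shared genes with 1 sign on both days, above background in the higher genotype in each depot and with a gene name, taking the 15 largest rises and falls, the 5 of smallest p each way, up to 4 of smallest p per list, Sucnr1, Lyz2, and 2 genes each just inside and outside the size rule. Exceptions are marked. Alternatives changed the scaling, terms, arrays, filter, weights and probe set rule. The fits of a single depot and day and those without WT VAT pools 3 and 4 were chosen after seeing the data. RefSeq (GRCm38.p6) supplied promoters for 13514 genes.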

Additional observations from a re-analysis of the deposited data

Results flagged for a closer look

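In 7 of 176 sets of 4 pools, 1 pool lay far from the other 3, and chance alone flags about 1 set in 20. Wdfy1 was 8.08 in KO VAT pool 2, with the other KO VAT pools at 8.35 to 8.38, and 6.19 in WT SAT pool 4, with the others at 6.69 to 6.77. Nnt was 5.49 in KO SAT pool 2 (others 5.97 to 5.998). Ssty1 was 6.61 in KO SAT pool 2 (others 5.35 to 5.46). Sprr2a1 was 6.80 in WT VAT pool 4 (others 8.79 to 9.13). Hoxb7 was 5.00 in KO VAT pool 3 (others 5.50 to 5.52). Cemip2 was 6.73 in KO VAT pool 3 (others 6.41 to 6.45).

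The knockout effect on Acss2 was larger in VAT than in SAT by 0.59 (limma, adjusted p = 0.0413). The rise had 1 sign in every depot and day.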

How the results depend on the processing

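The averaged count of 8831 became 4279 on day 2 alone, 5402 with the lowest 40% of genes by mean left out and 1347 with array spread as a term. Shared genes numbered 3399 on day 1, 1194 on day 2, 3581 under the filter and 801 with the spread term. In SAT the counts were 3563 without the day term, 582 on day 1, 4047 under the filter, 1319 with the spread term and 1073 for day 1 among 8 groups. In VAT they were 986 without the day term, 5376 on day 1, 331 on day 2, 1238 from VAT arrays alone, 6362 and 446 for days 1 and 2 among 8 groups, and 8113 without WT VAT pools 3 and 4. Genes passing in both depots numbered 311 without the day term, 319 on day 1, 81 on day 2, 338 with the spread term, 723 with depots crossed and 5136 without the 2 pools. Genes without overlap numbered 5608 on day 1, 2897 on day 2, 199 under the filter and 3659 without the 2 pools, where fewer arrays are compared. The difference between depots gave 455 without the day term, 330 on day 1, 1904 on day 2, 1209 with array weights and 1704 with the spread term. Apart from fewer arrays or genes, the cause was not tested.

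Leaving out 1 array gave 7289 (KO VAT pool 1) to 9469 (WT VAT pool 4) genes on average, 3949 (WT VAT pool 1) to 6797 (WT VAT pool 3) shared, 3071 (WT SAT pool 4) to 7960 (WT VAT pool 1) in SAT and 1115 (KO VAT pool 1) to 4007 (WT VAT pool 4) in VAT. It gave 512 to 2327 in both depots, 334 (WT SAT pool 4) to 811 without overlap, and 546 (KO VAT pool 4) to 1310 for the difference. Sucnr1, never called, ranged from -0.013 to 0.020, and was -0.014 without WT VAT pools 3 and 4.

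Whether pool numbers pair the arrays is not settled by the labels or by 2 pools a day. Within-day correlations of same-numbered pools were -0.31 to 0.38, those of KO SAT with KO VAT being 0.34 on day 1 and -0.0072 on day 2, and those of WT SAT with WT VAT 0.38 and -0.023. With the replicate block, pool in place of day, 8317 genes passed on average and 5712 were shared, and no named gene changed its call.

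With the spread term 5 of 43 named genes turned sign: Krtap6-2 (0.094), Mov10l1 (0.068), Pramel34 (0.055), Speer8-ps1 (0.23) and Usp14 (-0.13), and 21 kept their sign but not their call. In VAT on day 2, Mov10l1 (0.035), Speer8-ps1 (0.14) and Usp14 (-0.051) turned, and 30 lost the call with 4 arrays. Centring arrays gave 5025 shared genes, 61% higher in KO, against 41.2% as deposited.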
